A study of Arabidopsis thaliana with 4 samples.

Results

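The genes described here are 169 genes of Arabidopsis thaliana that the name tables list by an AGI locus code alone, and whose array signal was higher in leaves fed sucrose than in leaves fed sorbitol. They were chosen from 11933 locus-named probe sets with a single gene, out of 22746 probe sets on the array besides controls. A member had an intensity of at least 64 on both sucrose arrays and a log2 difference, sucrose minus sorbitol, of at least 1 in replicate 1 and again in replicate 2. Before any family was left out, 176 locus-named probe sets met these thresholds, which is 1.47% of those measured, against 2.15% of all probe sets. Of these, 4 UDP-glycosyltransferase genes, 2 berberine bridge enzyme-like tandem genes and 1 CC-type glutaredoxin were then left out. By synonyms and loci entered by hand, none was left out as a P450, WRKY or MYB gene. A member that some annotations describe as WRKY-like, outside the numbered WRKY genes, was kept without a role. The choice used both sucrose-minus-sorbitol differences, so these differences are a description and carry no test.

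Leaves of ecotype Col-0, wild type, came from full-grown source leaves of plants that had not flowered, grown with a 14 h day and a 10 h night and cut as the day ended. The sucrose-fed leaves stood with their petioles in 2 mM MES buffer at pH 6.5 with 100 mM sucrose, and the control leaves stood in the same buffer with 100 mM sorbitol, a sugar alcohol at equal concentration. Both groups were detached and kept in darkness for 13 h, so both share the wound, the darkness and the loss of the plant's own sugar supply, and no array came from leaves before feeding. Each group had 2 ATH1 arrays, called sucrose 1 and 2 and sorbitol 1 and 2 after their titles, each with 1 biotin-labelled sample, and the labels do not say whether these came from separate plants. In whole leaves, a lower signal from fewer cells of a type and from less RNA per cell cannot be told apart.

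Sucrose is both the carbon that leaves export and a signal. In plants sugar supply is sensed through hexokinase, the SnRK1 kinase and the TOR kinase, and ample sugar is known to favour protein synthesis, storage and anthocyanin formation while shortage favours the breakdown of reserves. Making ribosomes is among the costliest tasks of a growing cell. It needs the ribosomal proteins themselves and a large set of nucleolar assembly factors, many of them first described in yeast. The tables give these loci no product name, apart from the synonym peroxidase 71 for AT5G64120. Roles in the text are general background on each locus, assigned to 116 of the 169 members in 11 groups after the values were known, and the other 53 members have no role given here.

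Over the 169 members the mean log2 difference of both replicate numbers had a median of 1.57, with quartiles of 1.33 and 2.04 and a range of 1.03 to 4.46. Replicate 1 had a median of 1.48 and replicate 2 a median of 1.53, while all 7355 single-gene probe sets tested had medians of -0.0056 and -0.014. The 31 probe sets with a gene symbol that met the same thresholds, 1.96% of 1580, had a median of 1.81. Intensities of the members had medians of 192.8 and 253 on sucrose 1 and 2, against 61.5 and 64 on sorbitol 1 and 2. Of the 169 members 75 had a mean under 1.5, 43 reached 2 and 12 reached 3. A mean of 2 was reached by 2.8% of all probe sets and by 13 of the 31 symbol-named probe sets past the same thresholds. The sucrose and sorbitol arrays did not overlap for 166 members, and 21.1% of all probe sets had sucrose on top without overlap. The exceptions were AT5G14700, AT4G20830 and AT4G10750.

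**Figure D1:**
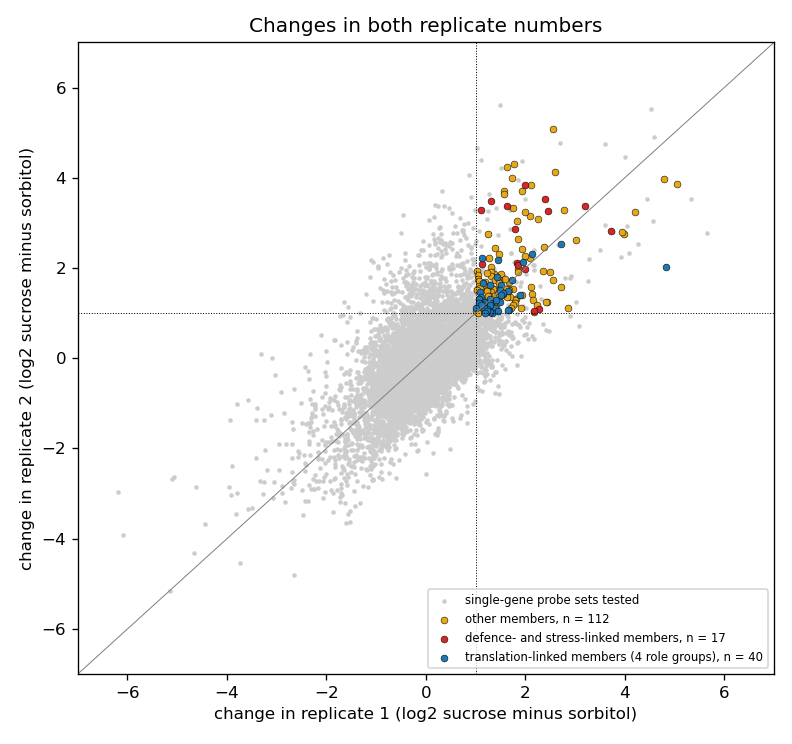
Each point is a probe set, with its log2 sucrose-minus-sorbitol difference in replicate 1 on the x axis and in replicate 2 on the y axis. Grey points are the single-gene probe sets tested, coloured points the members by role, dotted lines the threshold of 1 and the diagonal equal differences. Of the 40 translation-linked members 4 reach a mean of 2, against 39 of the other 129, and most lie near the corner of the thresholds. Above the diagonal lie 11 of the 17 defence- and stress-linked members and 96 of all 169.

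A limma fit of the whole table called 11 of the 169 members higher in sucrose at an adjusted p under 0.05, where it called 0.366% of all 13648 probe sets tested. With the replicate number as a block it called all 169, where it called 8.28% of all. The rule chose the members for large and repeated differences in that same contrast, so nothing is read from these counts. The members nearest the fold threshold were AT1G67430, AT3G09630, AT2G05920 and AT5G08180, with smaller differences of 1.0016, 1.0038, 1.0075 and 1.013. The nearest genes outside it were AT3G55470, AT4G15640, AT5G51830 and AT2G20690, at 0.9987, 0.9959, 0.9956 and 0.9956. At the intensity threshold AT3G15680, AT4G17100, AT2G28790 and AT1G06720 were just inside, with lower sucrose intensities of 64.3, 66.3, 67.8 and 69.5. AT1G52700, AT4G04940, AT1G23280 and AT1G14060 were just outside, at 63.3, 61.4, 61 and 60.6.

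Several facts of the arrays touch the members. The 25S ribosomal RNA control split the arrays by replicate number, with 1255.2 and 56.6 on sucrose 1 and 2, against 2163.2 and 14.4 on sorbitol 1 and 2. The older GAPDH control gave a log2 gap between its 3 prime and 5 prime probe sets of 1.43 and 0.20 on sucrose 1 and 2, against 1.85 and 1.44 on sorbitol 1 and 2. Markers were looked up among probe sets annotated to a single gene, and are called measured where such a probe set was found. Of 6 leaf mesophyll markers 4 were measured, and all were present on every array and lower in sucrose. Rubisco activase RCA had 1546.8 and 835.5 in sucrose, against 3833.5 and 3154.9 in sorbitol. Of the marker lists for other cell types, the 2 measured root genes of 6 lay between 3.4 and 13.1 in sucrose and between 12.3 and 20.8 in sorbitol. The single measured guard cell gene, FMA, had 39.5 and 37 against 41.3 and 55.6. No pollen, seed, flower, phloem, epidermis or xylem marker on the lists had a single-gene probe set. Other probe sets of the array were not searched for them.

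The 12 members with the largest mean differences belong to several roles. AT4G39670, a glycolipid transfer protein, had intensities of 192.8 and 1710.9 on sucrose 1 and 2, against 5.8 and 117.4 on sorbitol 1 and 2. Both groups were higher in replicate 2, and the sorbitol 1 value lay below 9.3, the highest intensity of the 27 Bacillus control probe sets. Its mean log2 level was 9.17 ± 2.23 in sucrose and 4.71 ± 3.07 in sorbitol (SD, n = 2 each). The difference was 4.46, or 4.12 with values below that control level raised to it. It ranged from 2.29 without sorbitol 1 to 6.63 without sorbitol 2, and was 2.89 without sucrose 2, so its size is poorly set by these arrays. AT3G01830, an EF-hand calcium-binding protein, had 93.6 and 472.1 in sucrose, against 3.4 and 30.2 in sorbitol. It shared the low sorbitol 1 value, and its mean log2 level was 7.72 ± 1.65 in sucrose and 3.34 ± 2.23 in sorbitol (SD, n = 2 each). The difference of 4.37 became 3.65 with dim values raised, 2.80 without sorbitol 1 and 5.95 without sorbitol 2. AT3G01800, a ribosome recycling factor of the kind that frees bacterial-type ribosomes after termination, had 70.8 and 85.9 in sucrose, against 2.5 and 21 in sorbitol. Its sucrose arrays were alike while its sorbitol arrays were not, and its difference of 3.43 became 2.48 with dim values raised and 1.89 without sorbitol 1. These 3 genes were the members with a sorbitol value under the control level.

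The other large differences stood on sorbitol values above that control level. AT4G34950, of the major facilitator superfamily of membrane carriers, had 601.9 and 377.2 in sucrose, against 38 and 55.7 in sorbitol. Its mean log2 level was 8.90 ± 0.48 in sucrose and 5.52 ± 0.39 in sorbitol (SD, n = 2), a 10.4-fold difference. AT1G61930, with no role given here, had 350.3 and 142 against 18.9 and 15, which is 13.2-fold, and AT4G37295, likewise without a role, had 369.9 and 253 against 24.1 and 36.6, which is 10.3-fold. For these 3 genes sucrose 1 was the brighter sucrose array. AT2G41730 had 163.7 and 1186.5 in sucrose, against 27.7 and 35.1 in sorbitol, and AT1G19020 had 517.2 and 1615.2 against 85 and 91.7. Here sucrose 2 was by far the brighter, while the sorbitol arrays were nearly alike. The probe set of AT2G41730 has the x_at suffix, which Affymetrix gives to probes that can match further transcripts, so its signal may be shared. AT3G48650, annotated as a transcribed pseudogene, had 89.3 and 673.5 in sucrose, against 26.2 and 34.2 in sorbitol. Without sucrose 2 the difference of AT2G41730 was 2.39 in place of 3.82, and that of AT3G48650 was 1.58 in place of 3.03.

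**Figure D2:**
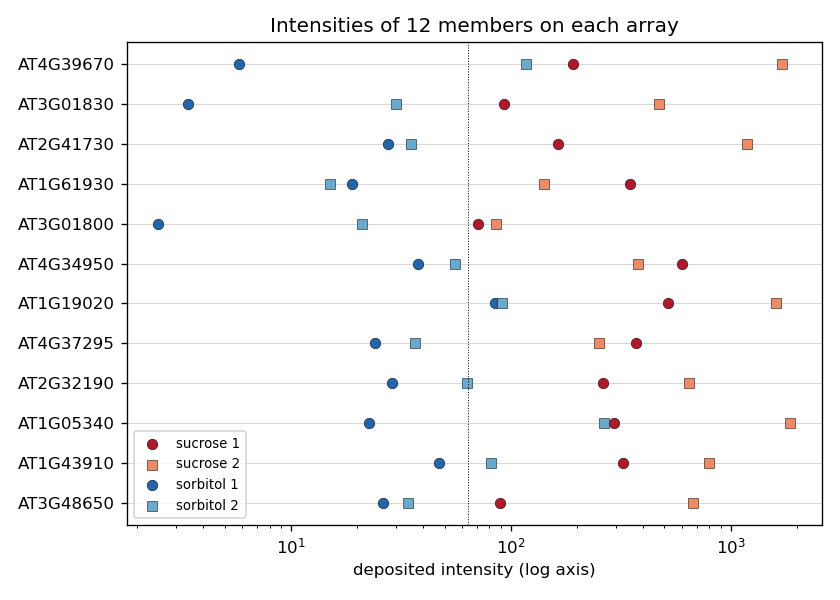
Deposited intensity (log axis) of the 12 members with the largest mean log2 differences, 1 row per gene, with both sucrose arrays in red shades and both sorbitol arrays in blue shades. The dotted line is the intensity minimum of 64 that the rule set for sucrose. In every row both sucrose points lie right of both sorbitol points, closest for AT1G05340 with 296.4 on sucrose 1 and 265 on sorbitol 2.

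Of the 116 members with a role, 40 concern ribosomes, translation or organelle RNA: 11 cytosolic ribosomal proteins, 11 ribosome assembly factors, 7 translation factors and RNA-binding proteins, and 11 organelle-type translation and pentatricopeptide repeat proteins. Roles were assigned to members alone, so the count of a role group cannot be set against its share of all locus-named probe sets. Nothing is read from such counts. The differences of these 40 were modest, with a median of 1.33, and 4 of the 40 reached 2. They were also even: replicate 1 had a median of 1.31 and replicate 2 a median of 1.31. The differences of 34 of the 40 agreed within 0.5 between replicates, as did those of 64 of the other 129 members and 4017 of the 7355 single-gene probe sets tested. The least difference that the rule allowed also limits how far small values can spread.

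The cytosolic ribosomal proteins were 8 of the large subunit, stalk included, and 3 of the small subunit, and 10 of the 11 stayed under a difference of 2. AT3G57490, a small-subunit protein of the S2 family, stood apart with 190.7 and 209.5 in sucrose, against 43.6 and 42.2 in sorbitol. Its mean log2 level was 7.64 ± 0.10 in sucrose and 5.42 ± 0.03 in sorbitol (SD, n = 2 each), a 4.66-fold difference with little spread within either group. AT4G10450, a large-subunit protein of the L9 family, had 259.1 and 190.1 against 83 and 67.5. Of the acidic stalk proteins, which help recruit elongation factors, AT5G57290 had 507.4 and 293.6 against 206.6 and 95.7. AT4G25890 had 521 and 189.9 against 162.5 and 90.8, and AT3G44590 had 428.5 and 205.6 against 174.1 and 82.2. All 3 stalk genes were brighter on the replicate 1 array in both groups. Sucrose 1 was also above sucrose 2 in 10 of the 11 cytosolic ribosomal proteins and 34 of the 40 translation-linked members. The same held for 54 of the other 129 members and 4409 of the 7355 single-gene probe sets tested. Without sorbitol 2 the difference of AT5G57290 was 0.90 in place of 1.46 and that of AT3G44590 was 0.77 in place of 1.31, and AT3G44590 had 0.78 without sucrose 1. AT3G09630, a protein of the L4 family, had 1136.6 and 1035.9 against 566.8 and 476, and AT1G67430, of the L17 family, had 1470.1 and 1019.1 against 649.2 and 509. These 2 genes differed by 2.09-fold and 2.13-fold, just past the threshold. The remaining 4 (AT3G04230, AT3G53890, AT3G16780 and AT5G67510) ran from 2.21-fold to 2.55-fold. Most cytosolic ribosomal proteins of Arabidopsis are encoded by several similar genes, so a probe set may catch transcripts of more than 1 of them.

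The assembly factors, which process ribosomal RNA and build the subunits in the nucleolus, had a median of 1.36. AT3G22660, related to yeast Ebp2, had 82.1 and 71.7 in sucrose, against 21.3 and 16.3 in sorbitol, a 4.12-fold difference. AT3G18600, a DEAD-box RNA helicase, had 235.8 and 135 against 63.7 and 51.1, and AT1G06720, related to the yeast GTPase Bms1, had 69.5 and 78.4 against 25.7 and 22.4. In each of these genes the lowest sucrose value was more than double the highest sorbitol value. The small nucleolar RNA particles that guide RNA modification were represented by both of their classes. AT3G05060, related to yeast Nop58 of the box C/D class, had 200.8 and 151.1 against 73.6 and 73.7. For the H/ACA class, AT3G03920, related to yeast Gar1, had 404.1 and 344.5 against 179.4 and 146, and AT5G08180, related to yeast Nhp2, had 196.5 and 133.6 against 78.6 and 66.2. AT4G15770, related to yeast Nip7, had 674.4 and 433 against 255.9 and 199.3. AT4G25730, a methyltransferase-like protein, was the least even of the group, with a difference of 1.12 in replicate 1 and 2.22 in replicate 2.

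Initiation of translation appeared through subunit d of eIF3, AT4G20980, and through eIF5, AT1G77840. The eIF3 gene had 315.5 and 272.2 in sucrose, against 115.5 and 60.6 in sorbitol. The eIF5 gene had 283.2 and 486.3 against 132.3 and 176.4. AT3G15680, a RanBP2-type zinc finger protein, had the largest difference of this group, 6.19-fold, with 170.4 and 64.3 against 25.8 and 11.1. Its low sucrose 2 value places it next to the intensity threshold.

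Beside the recycling factor, the organelle-type group held elongation factor Tu, AT4G02930, which delivers aminoacyl-tRNA in organelles. It had 328.1 and 272.2 in sucrose, against 98.7 and 81.6 in sorbitol, and its differences in both replicate numbers were nearly equal at 1.73 and 1.74. Bacterial-type ribosomal proteins of the families S5, S6, S9, L13 and L23 had differences of 1.14 to 1.57. AT1G64880, of the S5 family, had 234.1 and 165.2 against 81.7 and 53.9. The 4 pentatricopeptide repeat proteins, a family that binds organelle RNA, had differences of 1.15 to 1.5. AT3G49080, of the S9 family, was measured by 2 probe sets. The one that met the rule had 132.9 and 115.4 in sucrose, against 54 and 56.6 in sorbitol, and the other, at 2.6 and 15 against 14.1 and 1.6, was dim and went opposite ways in the replicate numbers.

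**Figure D3:**
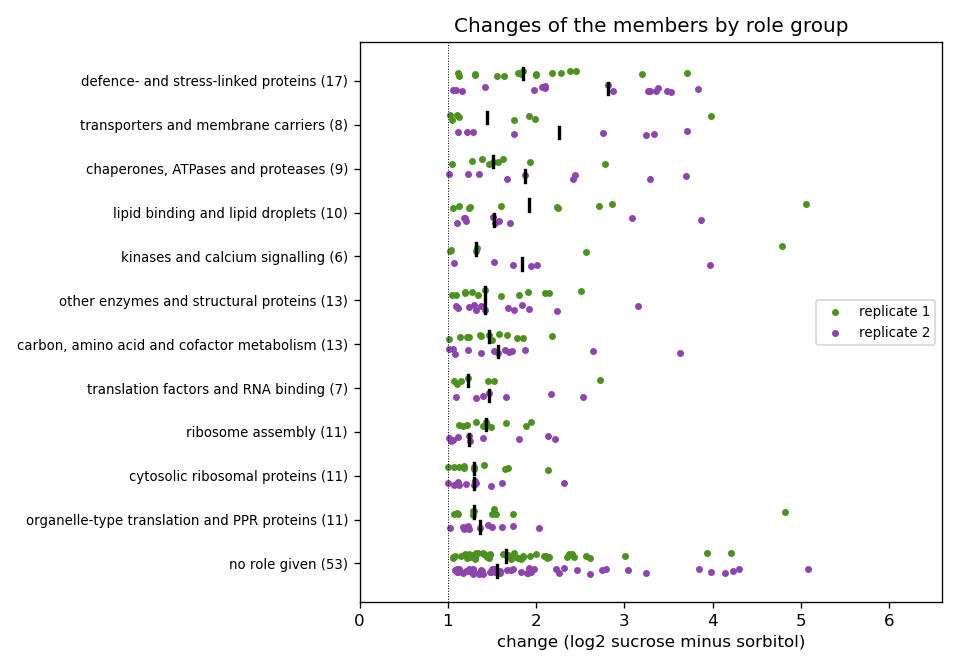
Log2 sucrose-minus-sorbitol differences of every member by role group, in replicate 1 (green) and replicate 2 (purple), with black bars at the medians and the number of genes in brackets. The dotted line is the threshold of 1. The defence- and stress-linked group has medians of 1.85 and 2.82, and the cytosolic ribosomal proteins have medians of 1.30 and 1.29.

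Proteins linked to defence or stress, 17 in all, had the highest median of the groups with a role, 2.20, followed by carriers at 1.97. A mean of 2 was reached by 9 of these 17, 4 of 8 carriers and 43 of all 169 members. It was also reached by 13 of the 31 symbol-named probe sets past the same thresholds. The groups were drawn with the values known, so nothing is read from their order. All 3 members with a cysteine-rich transmembrane module, short membrane proteins tied to stress, were high in the defence- and stress-linked group. AT2G32190 had 264 and 649.4 in sucrose, against 28.7 and 63.1 in sorbitol, which is 9.73-fold. AT1G05340 had 296.4 and 1870.4 against 22.6 and 265, which is 9.62-fold, and its lower sucrose value was close to its higher sorbitol value. Its log2 difference of 3.27 was 1.49 without sorbitol 1, 1.94 without sucrose 2 and 5.04 without sorbitol 2. AT1G56060 had 150.7 and 419.5 against 28.8 and 36.4. All 3 were brighter in replicate 2 in both groups. AT4G36010, a thaumatin-like protein of the kind secreted in defence, had 135.3 and 248.6 against 24.8 and 25.8. AT1G57630, with the TIR domain of plant immune receptors, had 207.6 and 803.2 against 66.6 and 77.1. AT1G66090, a TIR and nucleotide-binding protein, had 84.4 and 581.3 against 34.2 and 51.8. AT5G38900, a protein with the thioredoxin fold of DsbA, a bacterial oxidoreductase, differed by 1.99 in replicate 1 and 3.83 in replicate 2. AT3G55430, a beta-glucanase-like protein, had 426.8 and 1571 against 197.7 and 160.9. In these last genes the sorbitol arrays were close together, and sucrose 2 was well above sucrose 1.

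This unevenness was common in the group. Sucrose 2 exceeded sucrose 1 by more than 1 log2 unit in 10 of the 17 defence- and stress-linked members and in 35 of all 169 members (20.7%). It did so in 6.61% of the single-gene probe sets tested, but in 9 of the 31 symbol-named probe sets past the same thresholds (29.0%). Such unevenness is thus not particular to the locus-named members. The same held for 3 of 8 carriers, 3 of 9 chaperones, ATPases and proteases, 2 of 6 kinases and calcium proteins, 3 of 10 lipid-linked members and 9 of 53 without a role. It held for 0 of the 40 translation-linked members, 2 of 13 metabolic enzymes and 3 of 13 other enzymes and structural proteins. Sorbitol 2 exceeded sorbitol 1 by that much in 4 of the 17 and 18 of all 169 members. The shares were 3.17% of the single-gene probe sets tested and 29.0% of the 31 symbol-named ones. The median difference was 2.82 in replicate 2 and 1.85 in replicate 1. In some members the sucrose-minus-sorbitol differences were even between replicate numbers, whether or not the sucrose arrays were alike. AT5G03350, a legume-type lectin protein, had differences of 2.00 and 1.97, though both groups were brighter in replicate 1, with 574.3 and 262.1 in sucrose. AT2G32190, among the 10 above, had 3.20 and 3.36, and the peroxidase gene AT5G64120 had 1.31 and 1.16. AT2G28790, a further thaumatin-like protein, and the lectin gene AT1G53070 differed more in replicate 1. They had 2.28 and 2.18 there, against 1.09 and 1.05 in replicate 2. As given above, sucrose 2 also stood apart in the older GAPDH control, with the smallest gap between its probe sets. The newer GAPDH control had 3 prime and 5 prime intensities of 2467.5 and 2480.2 on sucrose 2 and 1718.4 and 1550.4 on sucrose 1. It had 782.4 and 758.7 on sorbitol 1 and 1025.2 and 813.9 on sorbitol 2. Its 3 prime and 5 prime values were closest on sucrose 2, then on sorbitol 1. The part of RNA quality in these values was not tested.

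**Figure D4:**
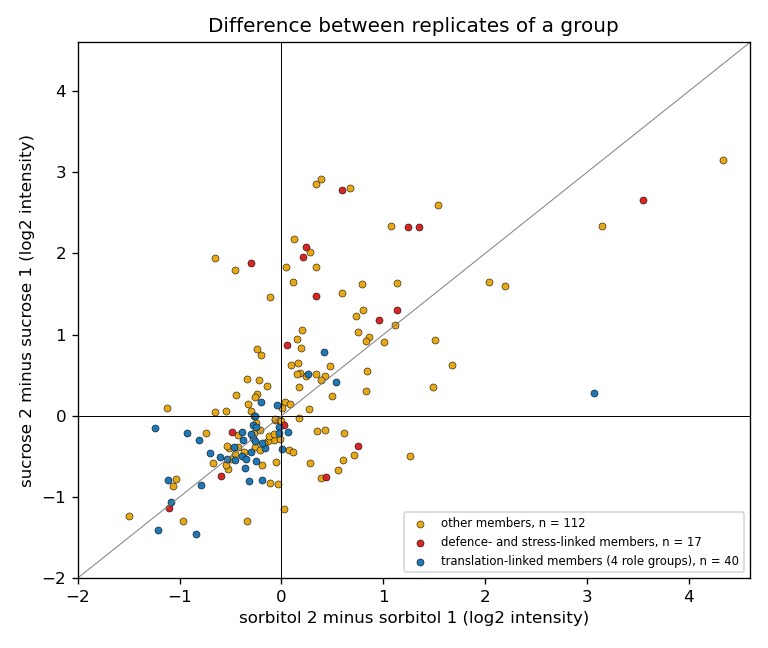
Log2 difference between the replicate arrays of a group for each member, sorbitol 2 minus sorbitol 1 on the x axis and sucrose 2 minus sucrose 1 on the y axis. Points on the diagonal have the same difference in both groups. On the y axis 35 of all 169 members lie above 1, among them 10 of the 17 defence- and stress-linked and 0 of the 40 translation-linked members.

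Metabolic enzymes formed a group of 13 with a median of 1.504. AT4G17260, a lactate dehydrogenase, had 148 and 671.3 in sucrose, against 49.7 and 54 in sorbitol, so sucrose 2 was far above the other arrays, and its difference of 2.61 was 1.51 without sucrose 2. AT5G41670, a 6-phosphogluconate dehydrogenase of the oxidative pentose phosphate pathway, had 272.1 and 372.9 against 75.3 and 59.5. In glycolysis, the pyruvate kinase gene AT5G56350 had 539 and 1268.6 against 208.3 and 346.4. The beta subunit of pyrophosphate-dependent phosphofructokinase, AT1G12000, had 171.3 and 144.2 against 60.7 and 55.6. AT2G31390, a fructokinase that phosphorylates the fructose freed from sucrose, had 828.1 and 735.7 against 409.5 and 353.8. The pyruvate kinase differed more in replicate 2, and the phosphofructokinase and fructokinase genes differed about equally in both.

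Further along carbon flow, E2 subunits of mitochondrial dehydrogenase complexes were present. The 2-oxoglutarate dehydrogenase genes AT5G55070 and AT4G26910 had differences of 1.60 and 1.40, and the pyruvate dehydrogenase gene AT1G54220 had 1.16. In amino acid synthesis, argininosuccinate synthase AT4G24830 had 314.6 and 303.6 in sucrose, against 98.6 and 94.2 in sorbitol. Its groups were tight, with differences of 1.67 and 1.69. DAHP synthase AT1G22410, the entry enzyme of the shikimate pathway that leads to aromatic amino acids, had 992 and 935.9 against 385.2 and 324.5. AT3G23940, the dihydroxyacid dehydratase of branched-chain amino acid synthesis, had 146 and 107.3 against 42.4 and 45.9. For phosphocholine synthesis, the methyltransferase gene AT1G73600 had 1001.7 and 588.1 against 221.8 and 291.1, a difference of 2.18 in replicate 1 and 1.01 in replicate 2.

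Lipid-binding and lipid droplet proteins numbered 10, with a median of 1.64. Both members of the rubber elongation factor family, which coat lipid droplets in plants, were among the highest after the glycolipid transfer protein. AT3G05500 had 406.8 and 1253 in sucrose, against 85.4 and 147.9 in sorbitol, a 6.35-fold difference. AT1G67360 had 1227.8 and 1565 against 187 and 523.4, a 4.43-fold difference. The first differed more in replicate 2 and the second more in replicate 1. The log2 difference of AT1G67360 was 2.15, or 1.41 without sorbitol 1. Of the 3 lipid transfer proteins, AT5G55450 had 269.6 and 191.3 against 37 and 88.7. AT1G62790 had differences of 1.61 and 1.53, and AT4G33550 of 1.13 and 1.20. In 4 of the 10 genes the difference in replicate 1 exceeded that in replicate 2 by more than 1. The same held for 12 of all 169 members and 463 of the 7355 single-gene probe sets tested.

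Carriers numbered 8, and 7 of them had the larger difference in replicate 2, AT4G34950 being the exception. AT3G25610, a P4-type ATPase that flips phospholipids, had 145.4 and 516.2 in sucrose, against 38.3 and 39.4 in sorbitol. AT2G04070, of the MATE family that extrudes small molecules, had 70.8 and 195.5 against 21 and 19.4. AT4G33905, of the Mpv17 and PMP22 family of organelle membrane proteins, differed by 1.99 in replicate 1 and 3.25 in replicate 2, and its mean of 2.62 was 1.45 without sucrose 2. Another MATE gene, AT1G61890, was near the threshold with 149.8 and 282.5 against 73.6 and 130.9. AT2G16660, a second major facilitator gene, had 190.2 and 227.9 against 92.4 and 67.8. The pairs of related genes thus had differences of unlike size, 2.54 and 1.07 for the MATE genes and 3.37 and 1.40 for the major facilitators.

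Signalling members were few. After the EF-hand gene, AT1G70810, with the C2 domain that binds membranes in a calcium-dependent way, had 694 and 598.5 in sucrose, against 117.4 and 179.4 in sorbitol. AT1G11330, a receptor kinase of the S-locus lectin type, had 113.1 and 116.5 against 45.5 and 28.9. Of the ATPases, AT1G43910 and AT5G17760 both resemble BCS1, a yeast mitochondrial protein. AT1G43910 had 323.5 and 798.4 against 47 and 81.7, and AT5G17760 had 122.4 and 378.7 against 32.2 and 70.6. Both were brighter in replicate 2 in either group, with mean differences of 3.04 and 2.17, the second being 1.36 without sucrose 2. AT1G13340, an IST1-like protein of endosomal sorting, differed by 1.56 in replicate 1 and 3.70 in replicate 2. Its mean of 2.63 was 1.23 without sucrose 2 and 4.04 without sucrose 1. AT3G09440, a cytosolic Hsp70 chaperone, had 299 and 526.5 against 114.1 and 96.9. Among other enzymes, AT2G41380, a methyltransferase, had 79.8 and 483.5 against 18.6 and 54.1. AT1G68620, an alpha/beta hydrolase, had 132.8 and 403.8 against 23.4 and 107. A second alpha/beta hydrolase, AT3G15650, was among the 8 brightest in sucrose, with 1871.3 and 1398.8 against 535.4 and 562.9. Without sucrose 2 the difference of AT2G41380 was 1.33 in place of 2.63 and that of AT1G68620 was 1.41 in place of 2.21, and AT1G68620 had 1.11 without sorbitol 1.

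The 53 members without a role had a median of 1.59 and held 14 of the 43 members that reached 2. AT5G39520 had 208.6 and 651.7 in sucrose, against 25.9 and 106.4 in sorbitol, with both groups brighter in replicate 2. AT1G12845 had 331.7 and 221.6 against 64.2 and 40.2, and AT1G17830 had 89.6 and 100.7 against 21 and 21.5. These last 2 were even between replicate numbers, with mean differences of 2.42 and 2.16. The log2 level of AT1G12845 was 8.08 ± 0.41 in sucrose and 5.67 ± 0.48 in sorbitol, and that of AT1G17830 was 6.57 ± 0.12 in sucrose and 4.41 ± 0.02 in sorbitol (SD, n = 2 each). AT2G29670 had 2070.6 and 1783.1 against 572.6 and 474.2, again with close differences of 1.85 and 1.91. In contrast AT4G01870 had 312.2 and 1205.8 against 100.9 and 64, and AT3G16330 had 131.8 and 459.5 against 39.9 and 29. AT3G57450, with 1030.5 and 1097 against 290.5 and 133.2, and AT1G32920, with 510.9 and 1064.6 against 185.4 and 213.1, have no record in the name table. AT5G62440 was measured by 2 probe sets, and the one outside the rule was higher in sucrose by 0.72 in replicate 1 and 1.38 in replicate 2.

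Taking all members, replicate 2 had the larger difference in 96 and replicate 1 in 73. Over the 7355 single-gene probe sets tested these counts were 3394 and 3961. The gap exceeded 1 log2 unit toward replicate 2 in 22 members and toward replicate 1 in 12. It did so in 656 and 463 of the 7355, and in 3 and 8 of the 31 symbol-named probe sets past the same thresholds. In gene order, 3 pairs of members were immediate neighbours among protein-coding genes and pseudogenes. These were AT3G01790 and AT3G01800, both of organelle-type translation, then AT4G02930 and AT4G02940, and AT5G02580 and AT5G02590. Their mean differences were 1.14 and 3.43, 1.74 and 1.44, and 1.84 and 1.42.

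Genes whose symbols or synonyms name a family give a setting for the role groups. Keywords for 12 families found 274 genes with enough signal to be tested. The limma fit called 3 of them higher in sucrose (DFR, UF3GT and GSTU25), where it called 0.366% of all probe sets higher. It called 2 lower (PORB and GSTU18), where it called 0.923% of all lower. The 65 tested oxidoreductases held DFR and PORB, the 70 tested transferases held the other calls, and the other 10 families held none. Some of these had little to call: lipid and wax binding had 0 genes tested and uncharacterised proteins 1. Protein kinases and phosphatases had 3, and chaperones and protein folding 4. The log2 differences were 3.21 for DFR, 3.79 for UF3GT, -2.29 for PORB and -2.38 for GSTU18, while GSTU25 had 90.1 and 329 in sucrose, against 3.9 and 7.2 in sorbitol, below the control level. The counts hung on single arrays: 0 higher and 0 lower without sorbitol 1, the same without sorbitol 2, 1 and 0 without sucrose 2, and 14 and 15 without sucrose 1. With the replicate number as a block 33 were higher and 22 lower, against 8.28% and 8.84% of all. Of the 11 tested genes whose names concern RNA, ribosomes or translation, limma called 0, with 2 higher and 0 lower at an unadjusted p under 0.05. With the block 2 of these 11 were higher and 0 lower.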

How the data were processed

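The authors' deposited table holds 1 intensity per probe set and array. Per the submitters' processing notes the intensities came from MAS5, with version and settings not given in the sources used here, and from the values each array has a 2 percent trimmed mean near 100. They were used as deposited, without further normalisation. Having only 4 arrays, and dim values near the controls, limits precision. The 64 control probe sets were left out, and log2 was taken after a floor of 0.1. Single genes came from the platform annotation (13513 probe sets, 13436 matched by gene number to TAIR10.1), which served for names and gene order alone. The fit used limma 3.58.1 in R 4.3.3 (lmFit, eBayes with trend, Benjamini-Hochberg) on the 13648 probe sets at or above the 40th percentile of mean log2. It was also run on simulated arrays whose noise was independent between arrays. Deviations of the real same-numbered arrays were correlated, so that run does not show how the fit performs on these data.

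The members, role groups and lists were chosen with earlier results of these data known. The loci of left-out families and the roles were entered by hand from general knowledge. Genes named are the 12 largest differences, the 8 brightest in sucrose, up to 4 members of each keyword family, neighbours, members with several probe sets and those next to a threshold. Some of the 4 members of each role group with the largest smaller difference, and further members, were named after their values were seen. With no statement on separate plants, limma's p-values cover array-to-array spread alone, part of which can be technical. Replicate numbers are shared by the titles, and deviations of same-numbered arrays correlated at 0.429, but 2 pairs do not settle a pairing. Alternatives were other filters, scalings, thresholds, a pseudocount of 5.3, a variance model without trend, a replicate block and each array left out.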

Additional observations from a re-analysis of the deposited data

Results flagged for a closer look

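Control probe sets took no part in the comparison, yet both of the newer GAPDH control met the thresholds set for the members. Its intensities were 1718.4 and 2467.5 in sucrose, against 782.4 and 1025.2 in sorbitol, at its 3 prime probe set, a log2 difference of 1.2. Its 5 prime probe set had 1550.4 and 2480.2 against 758.7 and 813.9, a difference of 1.32. Groups of 2 arrays are too small for a check of single outlying values.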

How the results depend on the processing

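The 169 members numbered 161 with quantile normalisation (154 of them the same genes), 145 with median centring (141 the same), 154 with a pseudocount of 5.3 and 169 with dim values raised. An intensity minimum of 32 in place of 64 gave 225 genes, and doubling the minimum gave 104. A least log2 difference of 1.5 gave 56. Replicate 1 arrays alone gave 348 and replicate 2 arrays alone 412, and these settings were chosen after seeing the data. The median difference of 1.566 was 1.504 with median centring, 1.455 with the pseudocount and 1.522 to 1.582 without 1 array. The rule fixed the direction of the members' differences, so their keeping it under another setting is no sign of stability.

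The limma fit called 50 probe sets higher and 126 lower in sucrose. Leaving out the filter gave 1 and 2, and filtering at the 60th percentile gave 83 and 182. Quantile normalisation gave 21 and 71, median centring gave 63 and 196, and a variance model without trend gave 26 and 77. The replicate block gave 1130 and 1206. Leaving out an array gave 0 to 403 higher and 0 to 545 lower: 403 and 545 without sucrose 1, 23 and 78 without sucrose 2, 1 and 0 without sorbitol 1, and 0 and 0 without sorbitol 2. For the family genes, 3 higher and 2 lower, leaving out the filter gave 0 and 0, and filtering at the 60th percentile gave 3 and 4. Quantile normalisation gave 1 and 1, no trend gave 2 and 1, the replicate block gave 33 and 22, and leaving out an array gave 0 to 14 higher and 0 to 15 lower. At an unadjusted p under 0.05, limma found 677 higher and 890 lower probe sets without sorbitol 2, and 872 and 783 without sorbitol 1. By the same measure it found 38 and 34 family genes without the filter, 22 and 18 without sorbitol 1, 19 and 19 without sorbitol 2, and 26 and 26 without sucrose 2. The cause of these shifts was not tested.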
